A study of Homo sapiens with 11 samples.

Results

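The genes described here encode the MAP kinase cascade and the serine/threonine protein phosphatases of the PPP family, as they appeared in maps of RNA bound by ZFP36L2 in acute myeloid leukaemia cells. A peak was a member when its single gene name began with MAPK, MAP2K, MAP3K, MAP4K or PPP1 to PPP6 followed by the rest of such a name. The rule found 764 of 67083 peaks and 64 of 6554 named genes, of which 20 encode kinases of the cascade, 38 encode phosphatase subunits and 6 carry such a name but are neither, among them MAPKAP1, MAPK8IP3, MAP3K7CL, MAP3K14-AS1 and PPP5D1. MOLM13 replicates held 154 and 159 member peaks, and THP1 replicates held 224 and 227.

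Binding was mapped by eCLIP, in which ultraviolet light crosslinks proteins to RNA, the protein is immunoprecipitated and the attached RNA fragments are sequenced. MOLM13 and THP1 are established human AML cell lines, and the labels give no treatment. MOLM13 contributed 2 immunoprecipitates with an antibody to ZFP36L2, 2 IgG libraries and 2 inputs, and THP1 contributed 2 immunoprecipitates, 2 IgG libraries and 1 input, 11 libraries in all. Nothing in the labels ties the duplicates to separate cultures, so the spread between them may be technical, and expression was not analysed here, so the lines were not checked against cell type markers.

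In the cascade, MAP4K enzymes act on MAP3K enzymes, these phosphorylate MAP2K enzymes, and these in turn activate the MAP kinases ERK, JNK and p38, some of which switch on MAPKAPK kinases. PPP phosphatases remove phosphate from serine and threonine, and their catalytic subunits are directed by regulatory subunits. ZFP36L2 belongs to the TIS11 family, whose zinc fingers recognise AU-rich elements such as UAUUUAU, mostly in 3' UTRs, and speed up the decay of the bound mRNA. For ZFP36, a paralogue, the p38 substrate MAPKAPK2 phosphorylates the protein and PP2A reverses it, so that this group of genes includes enzymes known to act on a member of the family.

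Values are the authors' log2 fold of each immunoprecipitate over its input, and a peak is called where that fold and the authors' −log10 p both reach 3. The same peak was looked up over IgG by identical coordinates, with the same 2 thresholds. A gene was counted as a target of a line when it had a peak in both replicates, and peaks of a gene that shared a base across libraries were joined into a site. Coordinates are in hg38 and count from 1. Fold values of one library depend on its own input and IgG, and the read depth behind them is unknown. No test was run: each line has 2 immunoprecipitates, the peaks were selected on these folds, and each value is therefore a description of these libraries.

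Targets of MOLM13 numbered 42 among the member genes and those of THP1 52, with 41 in common. When the peaks also had to be enriched over IgG, 21 genes were left in MOLM13 and 34 in THP1. The same count was not made for all genes. Of all peaks, 44.9% and 28.0% in MOLM13 and 43.1% and 59.0% in THP1 were enriched over IgG. The kinases gave 14 targets in MOLM13 and 16 in THP1, with all 14 shared. The phosphatases gave 26 in MOLM13 and 31 in THP1, with 25 shared. The targets that the lines share were not counted for all genes. Counting instead protein-coding genes with clusters in both replicates of a line, where a cluster is any region the authors listed, 42 of 89 members (47.2%, 95% Wilson interval 37.2 to 57.5) were targets in MOLM13, against 37.2% of all 10548 such genes. In THP1 it was 51 of 97 members (52.6%, interval 42.7 to 62.2), against 40.6% of 11099 genes. Member genes carried more clusters, with a median of 15.5 per gene against 8 for all genes in MOLM13 and of 13 against 7 in THP1. They were also longer, with a median of 57425 bases against 34137.5 in MOLM13 and of 58941 against 36584 in THP1. The part of cluster number and length in the higher share was not tested.

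Counts per tier were small. Of the cascade genes with clusters in both replicates of a line, targets were 2 of 3 MAP4K, 4 of 14 MAP3K, 2 of 6 MAP2K, 4 of 8 MAPK and 2 of 3 MAPKAPK genes in MOLM13, where all genes gave 37.2%. In THP1 they were 2 of 4 MAP4K, 6 of 14 MAP3K, 2 of 7 MAP2K, 4 of 9 MAPK and 2 of 3 MAPKAPK genes, where all genes gave 40.6%. Among the phosphatases counted the same way, all 4 calcineurin genes were targets in each line. The B subunits of PP2A, which choose its substrates, gave 6 of 8 in MOLM13, against 7 of 9 in THP1. Regulatory subunits of PP1, the most numerous role, gave 8 of 23 in MOLM13, against 11 of 26 in THP1, close to the shares of all genes.

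**Figure D1:**
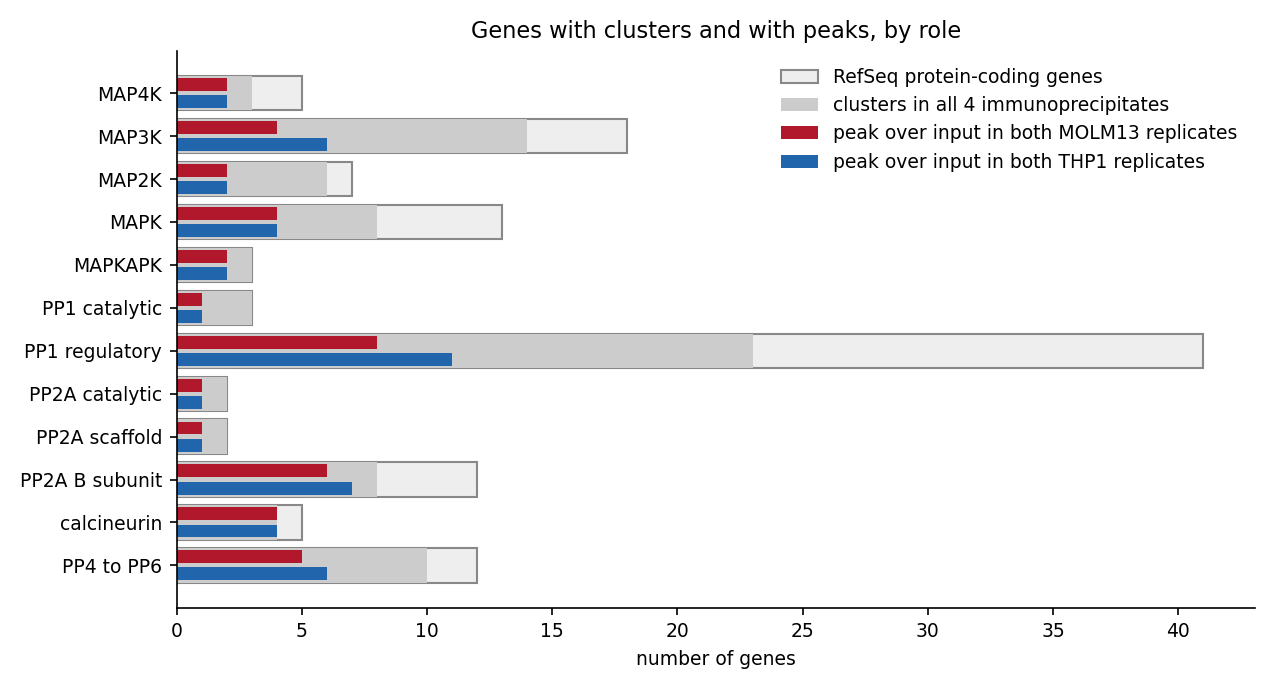
Number of genes (horizontal axis) per role (vertical axis). Pale bars show RefSeq protein-coding genes, grey bars those with clusters in all 4 immunoprecipitates, red bars those with a peak over input in both MOLM13 replicates and blue bars those with one in both THP1 replicates. PP1 regulatory subunits are the longest bar, with 41 genes and 8 targets in MOLM13 and 11 in THP1, while 4 of 5 calcineurin genes were targets in each line.

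Peaks of phosphatase genes lay in 3' UTRs more often than those of kinase genes in all 4 libraries. The share in 3' UTRs was 15.5% and 16.1% of kinase peaks in MOLM13 and 13.2% and 12.5% in THP1. For phosphatase peaks it was 28.4% and 33.7% in MOLM13, against 27.9% and 25.4% in THP1. All other peaks stood between these groups, at 20.2% and 22.7% in MOLM13, against 16.1% and 16.7% in THP1. The Wilson interval of the phosphatase share was 20.0% to 38.6% in MOLM13 replicate 1, which holds the value of all other peaks, and it lay above that value in the other 3 libraries (24.7% to 44.0%, 20.9% to 36.2% and 18.7% to 33.5%). The interval of the kinase share held the value of all other peaks in each library. These intervals cover counting error only, and peaks of one gene are not independent.

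Kinase peaks, like the others, were mostly intronic, with 79.3% and 75.8% in MOLM13, against 82.9% and 82.5% in THP1. All other peaks had 72.8% and 69.6% in MOLM13, against 78.2% and 76.9% in THP1, inside the kinase interval in each library. The intronic share of phosphatase peaks was 56.8% and 53.9% in MOLM13, against 65.1% and 65.4% in THP1. By gene, 6 of 34 kinases with clusters (17.6%) were 3' UTR targets in MOLM13 and 6 of 37 (16.2%) in THP1. For phosphatases it was 13 of 52 (25.0%) in MOLM13 and 17 of 56 (30.4%) in THP1, where all genes gave 13.5% in MOLM13 and 13.5% in THP1. Intronic targets were 13 of 34 kinases (38.2%) and 15 of 52 phosphatases (28.8%) in MOLM13, against 26.5% of all genes. In THP1 they were 14 of 37 kinases (37.8%) and 20 of 56 phosphatases (35.7%), against 31.0% of all genes.

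**Figure D2:**
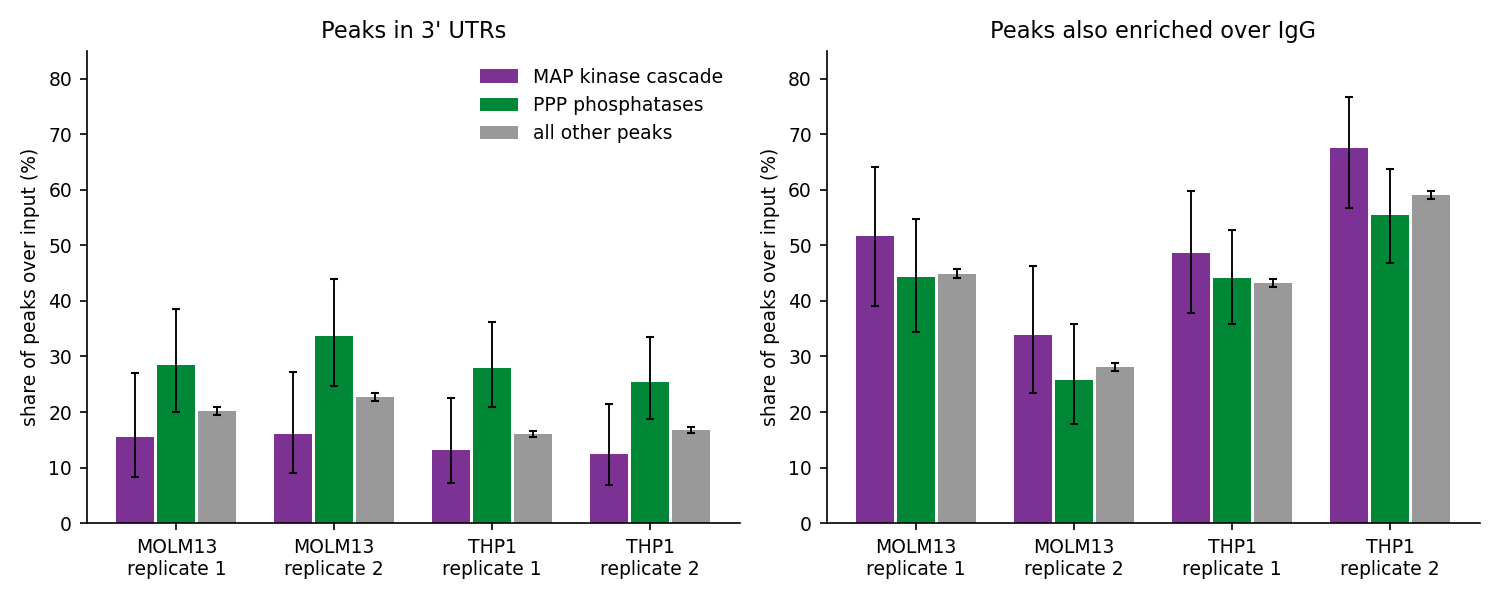
Share of peaks over input, in percent (vertical axis), that lie in a 3' UTR (left) or are also enriched over IgG (right), per library (horizontal axis), for kinase, phosphatase and all other peaks. Bars start at 0 and error lines are 95% Wilson intervals, which cover counting error only. Phosphatase bars are the highest of the 3 for 3' UTRs in each library, between 25.4% and 33.7%, while for IgG each gene group spreads more across libraries than the groups do within any library.

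The kinases with 3' UTR peaks spanned every tier, and 8 qualified in at least 1 line: MAP3K10, MAP2K1, MAPKAPK5, MAP4K5, MAPK6, MAP3K21, MAP3K20 and MAP4K4. MAP3K10, a mixed-lineage kinase that feeds the JNK pathway, had the highest 3' UTR fold by the lower replicate. Its site at chr19:40215350-40215512 stood at 4.58 and 5.31 (log2 over input) in MOLM13, against of 5.82 and 5.93 in THP1. Over IgG the same peaks had 3.59 and 3.96 in MOLM13, against 2.25 and 2.35 in THP1. Both THP1 values over input were above both MOLM13 values, while the order over IgG was the opposite and both THP1 peaks missed the IgG threshold. The site lay 63 bases from the 3' end of the RefSeq gene.

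MAP2K1 encodes MEK1, which activates ERK. Its 3' UTR site at chr15:66491105-66491332 had 4.10 and 4.93 over input in MOLM13, against 4.48 and 4.49 in THP1, so the lines overlapped. Over IgG the peaks had 2.92 and 5.16 in MOLM13, against 4.23 and 3.81 in THP1, and MOLM13 replicate 1 alone missed the threshold. MAP4K5, a kinase at the head of the cascade, had 3.63 and 3.99 in MOLM13, against 4.99 and 3.82 in THP1 at chr14:50419475-50419575. Of the 4 kinases with a 3' UTR peak in all 4 libraries, MAP4K5 alone also passed over IgG in each at its highest peak, with 3.97 and 3.22 in MOLM13, against 3.75 and 4.40 in THP1.

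MAPKAPK5 encodes PRAK, a kinase downstream of p38 and of ERK3. Its highest 3' UTR peaks had 3.68 and 3.11 over input in MOLM13, against 4.25 and 5.65 in THP1, and over IgG they had 1.11 and 2.76 in MOLM13, against 4.00 and 4.64 in THP1. Both THP1 values were above both MOLM13 values on either scale, although the MOLM13 replicate 1 peak lay elsewhere in the UTR. At the site that all 4 libraries shared, chr12:111895965-111896073, MOLM13 replicate 1 had 3.35 over input and 3.95 over IgG.

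The other 4 kinases were 3' UTR targets of a single line. MAPK6, which encodes the atypical kinase ERK3, had 3.78 and 5.05 in the THP1 replicates and no 3' UTR peak in MOLM13. MAP3K21, another mixed-lineage kinase, had 3.77 and 4.05 in THP1 and no peak anywhere in MOLM13. MAP3K20, which encodes the ribosome-stress kinase ZAK, had 3.27 and 3.69 in MOLM13 and no 3' UTR peak in THP1. MAP4K4 had 4.49 and 3.25 in MOLM13 and none in THP1. Over IgG, MAP3K21 passed with 3.11 and 3.05 in THP1, and MAP3K20 with 3.28 and 3.92 in MOLM13. MAPK6 had 1.95 and 4.05 over IgG in THP1, and both MAP4K4 peaks missed the threshold, at 1.92 and 2.89 in MOLM13. Most of the values over input lie close to the threshold of 3, and folds below 3 over input are not listed in the tables, so the size of these differences between lines is unknown.

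**Figure D3:**
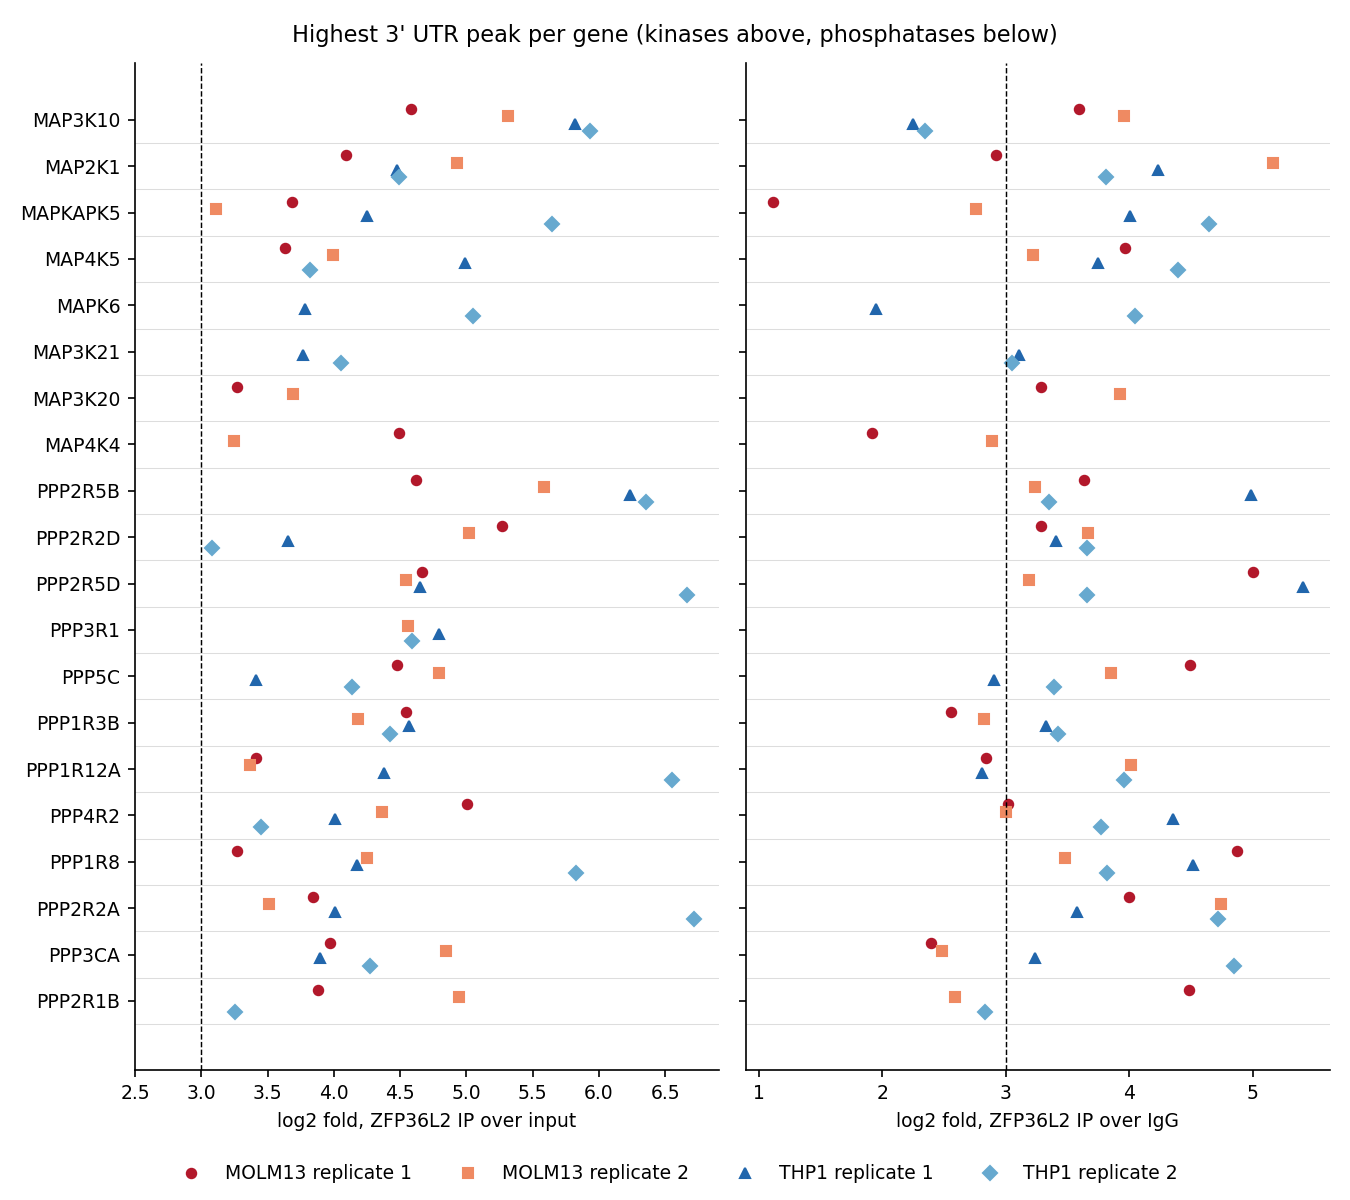
Log2 fold of the highest 3' UTR peak over input (left) and of the same peak over IgG (right) for the 8 kinases (upper rows) and the 12 phosphatase genes with the highest values (lower rows). Each symbol is 1 library and the dashed lines mark the threshold of 3, the highest peaks of a gene can lie at different places, and missing symbols mean no peak over input or no IgG row with its coordinates. PPP2R5B reaches 6.36 over input in THP1 replicate 2 and stays to the right of the line over IgG in all 4 libraries.

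Among the phosphatases, 18 genes had a 3' UTR peak in both replicates of at least 1 line, and 12 had one in all 4 libraries. Subunits of PP2A stood at the top. PPP2R5B, a B56 subunit that targets PP2A to its substrates, had 4.62 and 5.59 over input in MOLM13, against 6.23 and 6.36 in THP1. Over IgG its peaks had 3.64 and 3.23 in MOLM13, against 4.99 and 3.35 in THP1, so that all 4 passed, and both THP1 values over input were above both MOLM13 values. PPP2R5D, a second B56 subunit, had 4.67 and 4.54 in MOLM13, against 4.65 and 6.67 in THP1, with overlap between the lines. Its IgG values were 5.0 and 3.19 in MOLM13, against 5.41 and 3.66 in THP1, all above the threshold.

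PPP2R2D, a B55 subunit with a part in mitotic exit, ran the other way. It had 5.27 and 5.02 in MOLM13, against 3.65 and 3.08 in THP1, with no overlap between the lines, while over IgG the lines overlapped, with 3.28 and 3.67 in MOLM13, against 3.41 and 3.66 in THP1. The THP1 replicate 1 peak did not pass over IgG, because its −log10 p stayed below the threshold. PPP2R2A, a B55 subunit as well, had 3.85 and 3.51 in MOLM13, against 4.01 and 6.72 in THP1, and the THP1 replicates lay further apart than the lines did. PPP2R1B, a scaffold subunit, had 3.88 and 4.95 in MOLM13 and a peak of 3.25 in THP1 replicate 2 only. Over IgG its peaks had 4.48 and 2.59 in MOLM13, against 2.84 in THP1 replicate 2, so MOLM13 replicate 1 alone passed.

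Among the regulatory subunits of PP1, PPP1R3B, which brings PP1 to glycogen, had 4.54 and 4.18 in MOLM13, against 4.57 and 4.42 in THP1, all close together. None of its 4 peaks passed over IgG, with 2.56 and 2.83 in MOLM13, against 3.32 and 3.42 in THP1, where the −log10 p stayed below its threshold. PPP1R12A, the myosin phosphatase targeting subunit MYPT1, had 3.41 and 3.37 in MOLM13, against 4.38 and 6.55 in THP1. Over IgG its peaks had 2.84 and 4.02 in MOLM13, against 2.81 and 3.96 in THP1, so replicate 1 of each line missed the threshold. PPP1R8, a nuclear inhibitor of PP1, had 3.27 and 4.04 in MOLM13, against 4.17 and 5.82 in THP1, at chr1:27850802-27850900, with 4.87 and 3.27 over IgG in MOLM13, against 4.51 and 3.82 in THP1.

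Calcineurin, the calcium-activated phosphatase of NFAT, was represented by the catalytic subunits PPP3CA and PPP3CB. PPP3CA had a site at chr4:101024974-101025105 with 3.97 and 4.84 in MOLM13, against no peak in THP1 replicate 1 and 3.80 in replicate 2. Over IgG it had 2.40 and 2.49 in MOLM13, against 4.12 in THP1 replicate 2. A separate PPP3CA site, at chr4:101025330-101025421, had 3.93 in MOLM13 replicate 2, against 3.89 and 4.27 in THP1. PPP3R1, the regulatory B subunit, had 4.80 and 4.59 in THP1 at chr2:68180247-68180405, and no IgG row with those coordinates was found. The same place was bound at 3.87 and 3.89 in MOLM13, where the authors' region label was intron in both replicates.

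Among the remaining phosphatases, PPP5C, whose product has its own regulatory domain, had 4.47 and 4.79 in MOLM13, against 3.41 and 4.13 in THP1. Its MOLM13 values over input were above its THP1 values without overlap. PPP4R2, a regulatory subunit of PP4, had 5.01 and 3.03 in MOLM13, against 4.01 in THP1 replicate 1, at chr3:73067901-73068028. At another PPP4R2 site, chr3:73066665-73066766, it had 4.36 in MOLM13 replicate 2, against 3.48 and 3.45 in THP1, so that neither site had a peak in all 4 libraries. PPP1R15B, PPP2CB, PPP1R3D, PPP6R3, PPP3CB and PPP2R5C were the other 3' UTR targets and ranked below these genes by the lower replicate. The 3' UTR sites of kinases lay a median of 962 bases from the 3' end of the RefSeq gene and those of phosphatases 1689 bases.

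The highest folds of the group were intronic and belonged to the p38 branch of the cascade. MAPK14 encodes p38α, and its intronic site at chr6:36103330-36103405 had 8.45 and 9.14 over input in MOLM13, against 9.24 and 8.44 in THP1. Over IgG it had 4.83 and 4.20 in MOLM13, against 5.41 and 5.74 in THP1. By its lowest fold, 8.44, the site ranked 10 of 6655 sites with a peak in all 4 libraries. MAPKAPK2 encodes the kinase that p38α activates. Its intronic site at chr1:206706142-206706395 had 8.21 and 9.21 in MOLM13, against 10.10 and 9.23 in THP1, ranked 15, and had 4.81 and 4.04 over IgG in MOLM13, against 4.95 and 6.42 in THP1.

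Both genes carried further sites nearby. MAPKAPK2 had 2 more intronic sites just upstream, with 6.50 and 5.94 in MOLM13, against 6.63 and 5.38 in THP1 at chr1:206706018-206706077, and 4.24 and 4.08 in MOLM13, against 5.78 and 4.52 in THP1 at chr1:206705828-206705900. MAPK14 was the only kinase with coding peaks in all 4 libraries. One, at chr6:36102596-36102653, had 4.56 and 5.17 in MOLM13, against 4.21 and 5.26 in THP1, and the other, at chr6:36107454-36107500, had 3.51 and 4.07 in MOLM13, against 5.43 and 3.95 in THP1. Every library passed over IgG at its higher coding peak, between 3.19 and 4.82. Neither MAPK14 nor MAPKAPK2 was a 3' UTR target in either line.

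The other strong intronic kinase sites were in MAP2K5, MAP3K5 and MAPKAPK5. MAP2K5 encodes MEK5, the activator of ERK5, and had 7.25 and 7.67 in MOLM13, against 7.97 and 9.0 in THP1 at chr15:67724376-67724486. Both THP1 values were higher, over input and also over IgG (3.46 and 2.41 in MOLM13, against 3.73 and 4.19 in THP1). MAP3K5, the oxidative stress kinase ASK1, had 6.08 and 7.44 in MOLM13, against 7.89 and 6.93 in THP1. MAPKAPK5 had 6.72 and 6.72 in MOLM13, against 7.47 and 6.03 in THP1, and its MOLM13 peaks missed the IgG threshold at 2.73 and 2.37.

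Phosphatase introns were led by PPP6R3, a regulatory subunit of PP6. Its site at chr11:68531336-68531420 had 7.80 and 8.19 in MOLM13, against 7.43 and 8.12 in THP1, ranked 87 of 6655, and passed over IgG in each library. PPP1R12A followed with 7.93 and 8.49 in MOLM13, against 9.10 and 7.20 in THP1 at chr12:79923213-79923327, and over IgG with 2.90 and 2.43 in MOLM13, against 3.10 and 4.39 in THP1. PPP1R12A also held the most peaks of any member summed over the libraries, 40, with 9 and 8 in MOLM13, against 12 and 11 in THP1. PPP1R21 had 6.34 and 6.19 over input in MOLM13, against 6.48 and 6.65 in THP1, a range of less than 1, yet over IgG it had 1.77 and 1.25 in MOLM13, against 4.65 and 4.64 in THP1. PPP3CC, the third catalytic subunit of calcineurin, had 5.92 and 5.74 in MOLM13, against 6.80 and 6.87 in THP1. PPP2R5A, a B56 subunit, had 6.81 and 5.73 in MOLM13, against 8.60 and 7.41 in THP1. In both of these genes the THP1 values were higher without overlap over input and over IgG.

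**Figure D4:**
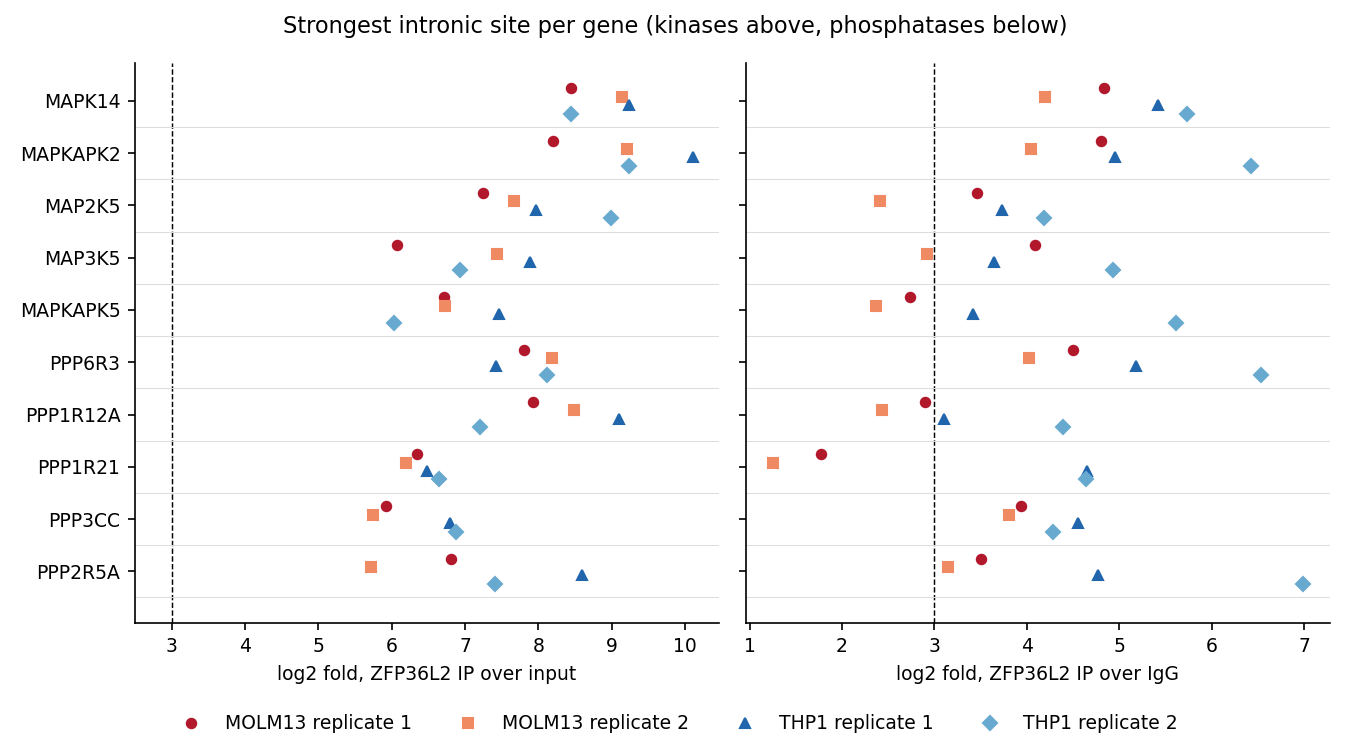
Log2 fold over input (left) and over IgG (right) at the strongest intronic site of 5 kinase genes (upper rows) and 5 phosphatase genes (lower rows). Each symbol is the highest peak of 1 library at the site and dashed lines mark the threshold of 3. MAPK14 and MAPKAPK2 lie above 8 over input in all 4 libraries, and PPP1R21 has the widest gap between the lines over IgG, with 1.77 and 1.25 in MOLM13, against 4.65 and 4.64 in THP1.

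MAPK8, MAPK6 and PPP1R12B also had many intronic peaks, and MAPK8 is named here after its values were seen. MAPK8, which encodes JNK1, had 4.52 and 5.52 in MOLM13, against 7.03 and 6.75 in THP1 at chr10:48422041-48422205. MAPK6 held 6 and 5 peaks in MOLM13 and 8 and 14 in THP1, whose sum of 33 was the highest of the kinases. PPP1R12B, the MYPT2 subunit, held 4 and 5 peaks in MOLM13 and 13 and 13 in THP1. Its highest peaks had 6.30 and 5.79 in MOLM13, against 6.95 and 6.55 in THP1. By the lowest fold over the libraries, its strongest site was chr1:202362782-202362909, at 5.71. A weaker site at chr1:202524333-202524427, named after its values were seen, had 4.11 and 4.46 in MOLM13, against 6.84 and 6.55 in THP1.

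Some targets were found in 1 line with no peak at all in either replicate of the other. MAP3K1, an upstream kinase of JNK, had 5.32 and 3.77 in THP1 at an intronic site and no peak in MOLM13. MAP3K21 was likewise a target of THP1. PPP6C, the catalytic subunit of PP6, had 3.21 and 4.29 in THP1, with its highest peaks at different places, and no peak in MOLM13. Each PPP6C site had a peak in only 1 library, and neither of these peaks passed over IgG, at 2.97 and 3.28. No kinase and no phosphatase was a target of MOLM13 with no peak at all in THP1. Such single-line targets were not counted for all genes, so these counts have no share to stand beside. The tables held 14432 and 14425 peaks in MOLM13 and 19325 and 18901 in THP1, and the part of that gap in the single-line targets was not tested.

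Coding peaks made up 6.49% and 6.92% of member peaks in MOLM13, against 3.57% and 4.41% in THP1, and for all other peaks it was 3.63% and 3.98% in MOLM13, against 3.03% and 3.13% in THP1. Peaks in 5' UTRs made up 2.597% and 2.52% of member peaks in MOLM13, against 1.34% and 2.64% in THP1, and 0.64% and 0.60% of all others in MOLM13, against 0.42% and 0.57% in THP1. The member shares rest on 3 to 11 peaks per library and region, some of which touch within a single site such as that of PPP1CB. PPP1R15A encodes GADD34, which brings PP1 to the translation factor eIF2α, and its site at chr19:48875944-48876057, labelled as coding in each library and in part as 3' UTR in MOLM13 replicate 1, had 5.59 and 6.34 in MOLM13, against 6.28 and 5.30 in THP1, with overlap between the lines. Its IgG values were 5.02 and 3.99 in MOLM13, against 5.04 and 5.29 in THP1. PPP3R1 had a site at chr2:68252241-68252402, labelled as 5' UTR or intron, with 5.86 and 6.12 in MOLM13, against 6.19 and 6.82 in THP1. Over IgG that site had 5.03 and 4.11 in MOLM13, against 4.72 and 5.11 in THP1, among the higher IgG values of the group.

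PPP1CB, a catalytic subunit of PP1, had a 5' UTR site at chr2:28751883-28752104 on the plus strand. Its highest peaks had 5.60 and 5.59 over input in MOLM13, against 4.57 and 5.16 in THP1. Over IgG the same peaks had 2.32 and 1.59 in MOLM13, against 0.97 and -0.28 in THP1, so none of the highest peaks passed and 1 THP1 library lay below its IgG control. A neighbouring peak of the site in MOLM13 replicate 1, at chr2:28751913-28751952, did pass, with 5.52 over input and 3.12 over IgG. The site was the only one of the members' 235 that lay in a promoter window of RefSeq (GRCh38.p14), that of the divergent transcript PPP1CB-DT. A stretch of 30 bases at its upstream edge, chr2:28751900-28751929, is shown because it holds the TIS11 heptamer, with capitals marking 2 overlapping copies of TATTTAT on the plus strand.

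PPP1CB 5' UTR: tctcttgttTATTTATTTATtttccgtggg

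This run is 70% A and T, while the 124 bases of the site inside the window are 64.5% G and C. TATTTAT on either strand was found in 4.93% of 35116 RefSeq promoter windows of 300 bases. The highest peak of THP1 replicate 1 spanned the capitals, and the highest peaks of MOLM13 replicate 1 and THP1 replicate 2 lay downstream of them, while that of MOLM13 replicate 2 covered part of them. The match is a description of the letters and does not show where the protein bound.

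With an overlap of at least 1 base, a peak of the other replicate overlapped 76.0% and 81.1% of member peaks in the MOLM13 replicates, where all peaks gave 78.4% and 83.9%. In the THP1 replicates it overlapped 80.8% and 83.7% of member peaks, where all peaks gave 81.8% and 85.1%. With an overlap of at least 50% of both peaks, member shares were 59.1% and 57.2% in MOLM13, where all other peaks gave 65.0% and 65.0%, and the interval of replicate 2, 49.5% to 64.7%, lay below that value. Member peaks passed over IgG in 46.1% and 27.7% of cases in MOLM13, against 43.3% and 58.1% in THP1. Over all peaks it was 44.9% and 28.0% in MOLM13, against 43.1% and 59.0% in THP1. The kinase share over IgG was 51.7% and 33.9% in MOLM13, against 48.7% and 67.5% in THP1, and the phosphatase share was 44.3% and 25.8% in MOLM13, against 44.2% and 55.4% in THP1. Kinases were higher than phosphatases in each library, but in MOLM13 the replicates differed by more than the gene groups did. Over all clusters the IgG comparison centred on a median log2 fold of 0.28 and -0.60 in MOLM13, against 0.0019 and 0.38 in THP1, and the shares that passed moved with it.

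The median fold over input was higher for kinase peaks than for phosphatase peaks. It was 4.54 and 4.71 for kinases in MOLM13 and 5.01 and 5.07 in THP1, and 4.14 and 4.36 for phosphatases in MOLM13 and 4.32 and 4.38 in THP1. All other peaks had 4.38 and 4.33 in MOLM13, against 4.51 and 4.47 in THP1. Within 3' UTRs the kinase median was the higher in THP1 replicate 2 only. There kinases had 3.68 and 3.43 in MOLM13, against 3.77 and 4.26 in THP1, and phosphatases 3.68 and 4.04 in MOLM13, against 3.90 and 3.77 in THP1. Within introns the kinase median was higher in each library. It was 5.07 and 4.82 in MOLM13, against 5.32 and 5.41 in THP1. Phosphatase introns had 4.28 and 4.48 in MOLM13, against 4.47 and 4.47 in THP1.

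Across the lines, 77 of the members' 235 sites had a peak in all 4 libraries (32.8%), against 32.9% of the 20013 sites of all other genes. For kinases it was 32 of 78 (41.0%) and for phosphatases 41 of 136 (30.1%). The median difference at the 77 sites, MOLM13 minus THP1, was -0.51, against -0.37 at the 6578 sites of other genes. Both MOLM13 folds were above both THP1 folds at 9 sites (11.7%), against 12.3% of all sites. Both THP1 folds were above both MOLM13 folds at 34 sites (44.2%), against 36.7% of all sites. The shift towards THP1 was thus present in the whole map, and folds of different lines rest on different inputs. Differences between replicates at shared sites had an SD of 0.78 for members and 0.84 for others in MOLM13, and of 0.93 for members and 0.82 for others in THP1.

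**Figure D5:**
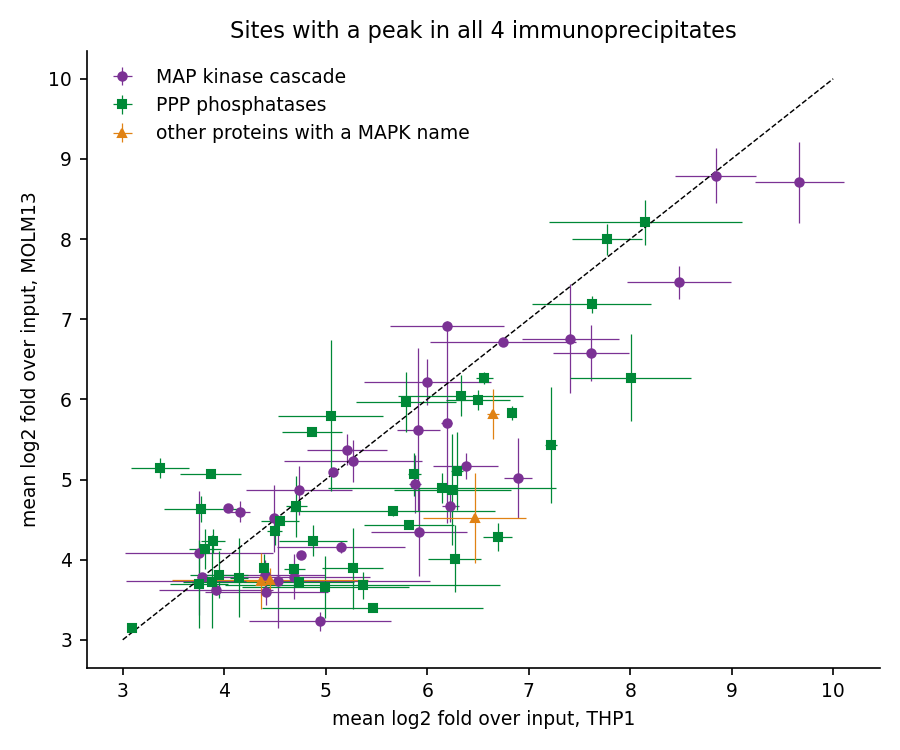
Mean log2 fold over input of the 2 MOLM13 replicates (vertical axis) against that of the 2 THP1 replicates (horizontal axis) at the 77 member sites with a peak in all 4 libraries. Each symbol is a site, arms reach from the lower to the higher replicate, and the dashed line marks equal folds. Of the 77 sites, 20 lie above the line, and the median difference, MOLM13 minus THP1, is -0.51.

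The 6 genes that share a name pattern without being kinases or phosphatases had intronic peaks almost only. MAPK8IP3, a JNK scaffold also called JIP3, had 6.13 and 5.51 in MOLM13, against 6.71 and 6.59 in THP1 at chr16:1750172-1750292. MAPKAP1, the mTORC2 subunit SIN1, had 5.08 and 3.96 in MOLM13, against 6.97 and 5.96 in THP1 at chr9:125702952-125703063. These genes are named after their values were seen.

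Genes related to the cascade or to the phosphatases under other names were counted in lists, beside the shares of all genes with clusters given above (37.2% in MOLM13 and 40.6% in THP1 for any region, and 13.5% in each line for 3' UTRs). Of 12 MAP3K-tier kinases without a MAP3K name, 11 had clusters, 7 of these (63.6%) were targets in each line and 4 (36.4%) were 3' UTR targets in each. BRAF, the kinase upstream of MEK1, led with 3' UTR folds of 4.44 and 4.52 in MOLM13, against 7.02 and 5.03 in THP1, and 2.72 and 2.17 over IgG in MOLM13, against 3.46 and 6.03 in THP1, followed by TAOK1 and TAOK3. Of 16 RAS proteins, RAS regulators and adaptors, 6 (60% of those with clusters) were targets in MOLM13 and 9 (81.8%) in THP1, with no 3' UTR target in MOLM13 and 3 in THP1 (NF1, SOS2 and NRAS). Of 16 kinases and factors downstream, 8 (53.3% of those with clusters) were targets in MOLM13 and 10 (66.7%) in THP1. ELK1, a transcription factor phosphorylated by ERK, had the highest 3' UTR fold of any list by the lower replicate, with 6.64 and 6.73 in MOLM13, against 6.39 and 7.58 in THP1, all above 4 over IgG as well. MEF2D and RPS6KA5 came next in that list.

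Of 11 partners of the kinase TAK1, 6 (54.5%) were targets in MOLM13 and 3 (30%) in THP1, and TRAF3 led with 3' UTR folds of 3.27 and 4.04 in MOLM13, against 4.84 and 4.16 in THP1, all above 3 over IgG. Of 10 dual-specificity phosphatases that inactivate MAP kinases, 2 (28.6% of those with clusters) were targets in each line, both in the 3' UTR. DUSP2 had 5.53 and 6.59 in MOLM13, against 3.88 and 4.13 in THP1, without overlap, and DUSP1 had 5.14 and 5.08 in MOLM13, against 4.99 and 4.51 in THP1. The IgG values of DUSP2 were 5.54 and 4.24 in MOLM13, against 3.63 and 2.13 in THP1, and those of DUSP1 were 4.16 and 2.72 in MOLM13, against 3.75 and 3.51 in THP1. The last list held 27 phosphatases, subunits and inhibitors without a PPP name, among them PPM1 and CTDSP genes, which encode phosphatases outside the PPP family. Of these 27, 13 (59.1% of those with clusters) were targets in MOLM13 and 17 (68%) in THP1, and 8 (36.4%) in MOLM13 and 9 (36%) in THP1 were 3' UTR targets. STRN3, a scaffold of a PP2A complex, had 6.28 and 5.30 in MOLM13, against 5.82 and 5.57 in THP1, and over IgG 3.30 and 2.14 in MOLM13, against 4.57 and 5.57 in THP1. RCAN3, an inhibitor of calcineurin, had 3.85 and 3.84 in MOLM13, against 6.37 and 5.02 in THP1. Its IgG values were 0.55 and -0.51 in MOLM13, against 2.54 and 4.02 in THP1, so the MOLM13 peaks were not above IgG by the threshold. TIPRL, a regulator of PP2A-type phosphatases, had 5.11 and 4.86 in MOLM13 and 3.53 in THP1 replicate 1.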

How the data were processed

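ZFP36L2 eCLIP, IgG and input libraries of MOLM13 and THP1 were used as comparisons that the authors deposited separately for every immunoprecipitate, with clusters of its own and no pooling of replicates. In these deposited tables the authors give for each cluster a log2 fold and a −log10 p, over input (with gene and region, only where both reach 3) and over IgG (all clusters). In the authors' tables, −log10 p does not exceed 400. Picard 2.6.0, STAR 2.5.0c, cutadapt 1.14 and edgeR are listed in the submitters' processing notes with the builds hg19, GRCh37 and hg38, without roles. Not given in the sources used here are the peak caller, the test behind the p, library depth and whether both THP1 folds rest on the 1 input. IgG rows were tied to input rows by identical coordinates, and 0 and 4 member peaks in MOLM13 and 2 and 2 in THP1 had none. Peaks with several gene names were left out. Values of 1 member gene, which stays in the counts, are not reported here. All 64 member symbols matched the RefSeq table of GRCh38.p14. Clusters over IgG carry no gene and were counted within RefSeq gene bounds on either strand.

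Genes are named when they had a 3' UTR peak in both replicates of a line (values for up to 12 kinases and 12 phosphatases), were among the 5 genes per kind ranked by their best intronic site or the 3 per kind with the most peaks summed over libraries, or had peaks in both replicates of a single line, a coding or 5' UTR peak in all libraries, or one of the 3 highest 3' UTR folds in a list. The members and lists were chosen with earlier results of these data known. No comparison was tested. Intervals given with shares are 95% Wilson intervals, which cover counting error only. Computation used Python 3.11.15, pandas 2.3.3, numpy 2.4.6, scipy 1.17.1 and matplotlib 3.10.9, and overlap counting was checked on simulated peaks. The alternatives tried were other fold, p and overlap thresholds, IgG as a second control, merged peaks, rows with several genes and leaving out each replicate.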

Additional observations from a re-analysis of the deposited data

Results flagged for a closer look

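At 3 intronic sites the log2 fold over IgG was below 0 in both MOLM13 replicates and above 0 in both THP1 replicates. This difference between the lines was not tested. At the MAPK6 site, chr15:52048476-52048579, the log2 fold over IgG was -1.72 and -0.86 in MOLM13, against 3.41 and 3.33 in THP1. At the PPP1R12B site, chr1:202510768-202510860, it was -1.30 and -0.014 in MOLM13, against 2.38 and 2.38 in THP1, so that 1 MOLM13 value was close to 0. At the PPP2R5E site, chr14:63381543-63381624, it was -0.13 and -0.43 in MOLM13, against 1.63 and 2.96 in THP1. The values are those of the highest peak or cluster of each library at the site. Each site had a peak over input in only 1 library, which for PPP2R5E was THP1 replicate 2, so the sites were selected on a high fold there. The median over IgG of all clusters of MOLM13 replicate 2 was -0.60. Its values at the PPP1R12B and PPP2R5E sites lay above that median. Sites of other genes were not searched for such a pattern.

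A peak outside the members, because its row names PPP2CA together with the locus AC104109.3, was found in the intron in both THP1 replicates, at 3.32 and 3.25 over input, with 3.07 and 3.84 over IgG. It lay at chr5:134213718-134213811 in replicate 1 and at chr5:134213726-134213818 in replicate 2. PPP2CA encodes the main catalytic subunit of PP2A and had no peak named for it alone.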

How the results depend on the processing

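Of 64 alternative values for the counts of targets and the shares, 35 stayed within 1.5 times the count or within the counting interval of the share, and 29 moved. Requiring IgG enrichment as well left 21 targets in MOLM13 and 34 in THP1, and 13 3' UTR targets in THP1. Raising the log2 fold threshold over input to 4 left 8 3' UTR targets in MOLM13 and 10 in THP1, and 3' UTR shares of 12.1% and 17.8% in MOLM13 and 12.7% in THP1 replicate 1. The target counts of this paragraph and these 3' UTR shares were not computed for all genes or all other peaks. The median fold of all other peaks was 3.98 and 4.04 in 3' UTRs in MOLM13, against 4.57 and 4.48 in introns. In THP1 it was 4.05 and 4.02, against 4.64 and 4.63. An IgG threshold of 2 gave shares over IgG of 62.3% and 44.7% in MOLM13, against 58.0% and 66.5% in THP1. For all other peaks it gave 60.8% and 44.4% in MOLM13, against 55.6% and 65.4% in THP1. A threshold of 4 gave 23.4% and 11.3% in MOLM13, against 20.5% and 37.0% in THP1. For all other peaks it gave 17.8% and 10.5% in MOLM13, against 17.5% and 35.5% in THP1. Subtracting each list's median moved the IgG share to 39.0% in MOLM13 replicate 2 and 51.5% in THP1 replicate 2 (all other peaks 39.6% and 53.4%). Keeping only reproduced peaks moved it to 58.1% in MOLM13 replicate 1 and to 50.8% and 66.8% in THP1. All other reproduced peaks gave 53.8% in MOLM13 replicate 1, and 50.5% and 66.9% in THP1. An overlap of at least 50% gave reproduced shares of 59.1% and 57.2% in MOLM13, against 67.9% and 66.96% in THP1 (all other peaks 65.0% and 65.0%, against 65.6% and 67.1%). A fold of at least 4 gave 92.3% and 93.1% in MOLM13, against 90.7% and 92.1% in THP1 (all other peaks 89.4% and 94.0%, against 91.6% and 94.3%). Leaving out 1 replicate gave 45 to 48 targets in MOLM13 and 56 to 57 in THP1, and 24 to 25 3' UTR targets in MOLM13 and 27 to 28 in THP1. A target needs a peak in both replicates, so these counts could not fall and no target could be lost. They are among the 35 values that stayed. Of 42 calls of a gene as a 3' UTR target of a line, 16 were lost when IgG enrichment was required and 24 at a fold of at least 4. No paired analysis was possible because no result comes from a test. The cause of these changes was not tested beyond the stricter thresholds themselves. Depth is unknown, so weak peaks cannot be told from absent ones, and 2 immunoprecipitates per line give no estimate of the spread between cultures.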

Other observations

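Several members of the pathways had many clusters in all 4 immunoprecipitates and no peak over input named for them alone. MAP3K7, which encodes the kinase TAK1, had 28 and 39 clusters in MOLM13 and 22 and 14 in THP1. MAP3K4 had 29 and 48 in MOLM13, against 27 and 22 in THP1, and PPP2CA had 22 and 25 in MOLM13, against 15 and 13 in THP1. MAPK3, which encodes ERK1, had only 2 and 4 clusters in MOLM13, against 6 and 3 in THP1. These genes were chosen after their values were seen, and clusters were counted on either strand.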
